A study of Rattus norvegicus with 48 samples.

Results

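A set of 10 genes of iron handling, heme synthesis and metal binding was followed in rat liver: Hamp, Hfe, Tf, Tfrc, Ncoa4, Slc40a1, Alas1, Cpox, Fech and Mt1. They were chosen by name. These genes and the gene lists used below were chosen with earlier results of these data known, so shares set against all probe sets are descriptions. A probe set was taken for a gene when the array's annotation gave it that gene's symbol and no other. Of the 10 genes, 9 had such a probe set, out of 14217 genes named this way on the array, and together they had 12 of the 31042 probe sets tested. Tf, which encodes the plasma iron carrier transferrin, was read only by probe sets shared with Srprb, so no Tf value is given. Where a gene had several probe sets, the one with the highest mean over the 24 liver arrays represented it.

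The animals were male Sprague-Dawley rats of 300 to 400 g, pair-housed on a 12/12 light/dark cycle with free access to food. Each received a single oral gel capsule of the explosive RDX, at 3 or 18 mg/kg, doses set to stay below the seizure threshold, and was killed at 0, 4, 24 or 48 h. Total RNA of cerebral cortex and of liver was hybridised to Affymetrix rat expression arrays, with 3 arrays in each of 16 groups, 48 in all. The 8 liver groups are described here, with cortex beside them.

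No group received an empty capsule at the later times, and each dose arm is therefore compared with its own 0 h arrays. The labels do not give the animals' age or the clock time at which tissue was taken, or say whether each array of a group stands for a separate animal. The p-values therefore measure the spread between these arrays, which may be technical. Levels are log2 values from the robust multi-array average, so a difference of 1 is a doubling, and levels of different probe sets cannot be set against each other. A change is called when its adjusted p in limma (a moderated test fitted over the 24 liver arrays, adjusted by the Benjamini-Hochberg method over all 31042 probe sets) is below 0.05. Errors on changes are standard errors.

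Hepatocytes govern the iron of the whole body through hepcidin, the peptide encoded by Hamp, which binds the iron exporter ferroportin (Slc40a1) and has it degraded. Hamp transcription follows iron through BMP and SMAD signalling, in which HFE and transferrin receptor 2 take part, and follows inflammation through interleukin-6 and STAT3. Iron enters cells through the transferrin receptor (Tfrc), is released from ferritin with the help of the cargo receptor NCOA4, and is built into heme by a chain that opens with ALAS1 and ends with CPOX, PPOX and FECH. Metallothioneins bind zinc, copper and cadmium, and their genes respond to metals and to glucocorticoids.

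The promoters of Hamp and Mt1 are shown because these genes are controlled through well-known short elements: BMP and STAT elements in Hamp, metal response elements in Mt1. RefSeq's promoter table (build GRCr8) held 8 of the 10 genes. The 250 bases before the annotated start are printed 5′ to 3′ on the gene's strand, for Hamp chr1:95300272-95300521 and for Mt1 chr19:10832976-10833225, both on the minus strand. Capitals mark, in Hamp, matches to GGCGCC and TTCNNNGAA, and in Mt1, matches to TGCACNC or TGCGCNC, all searched on both strands.
Hamp: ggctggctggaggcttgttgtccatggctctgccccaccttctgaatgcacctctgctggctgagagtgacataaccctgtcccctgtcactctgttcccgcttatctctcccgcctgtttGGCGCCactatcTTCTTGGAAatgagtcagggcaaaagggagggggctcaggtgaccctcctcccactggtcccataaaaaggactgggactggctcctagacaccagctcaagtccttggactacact
Mt1: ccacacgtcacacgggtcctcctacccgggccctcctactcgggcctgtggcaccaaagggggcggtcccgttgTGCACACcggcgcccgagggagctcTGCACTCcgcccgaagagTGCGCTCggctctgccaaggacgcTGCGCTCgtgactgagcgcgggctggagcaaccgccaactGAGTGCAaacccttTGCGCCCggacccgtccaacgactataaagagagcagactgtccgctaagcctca
In Hamp the GGCGCC match lay 129 to 124 bases before the start, and the TTCNNNGAA match followed it at 117 to 109 bases. GGCGCC was found in 8.69% of 33469 rat promoter windows of the same length, and TTCNNNGAA in 7.67%. The Mt1 window held 6 matches to the metal response core, between 176 and 49 bases before the start, with no overlap among them. A single match or more was found in 20.6% of the windows, and 6 or more in 9 of them (0.0269%). A match describes the letters of a window and is not a measured binding site.

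The liver arrays carried liver RNA: all 9 hepatocyte markers lay above the median probe set, and none of the 5 neuron markers did. The 2 liver arrays with the narrowest spread of log2 values stood apart, replicate 2 of the 3 mg/kg 0 h group (SD 1.499) and replicate 1 of the 18 mg/kg 4 h group (SD 1.39), against 1.83 to 2.09 in the other liver arrays. These are called the 2 compressed arrays. The first of them sits in the group that is the reference for every 3 mg/kg comparison.

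In liver 48 h after 3 mg/kg, 5 of the 9 measured genes changed. Hamp, Hfe, Ncoa4 and Cpox rose and Mt1 fell, by factors of 3.45 to 7.38. Over all probe sets 9.34% were called in the same comparison, 1864 probe sets as higher and 1034 as lower. Among the 15521 brighter probe sets, where all 9 representatives lie, 11.6% were higher and 2.74% lower. Median changes and shares of positive changes are set below against all probe sets, dim ones included, as those of the brighter ones are not given here. A gap from them is therefore not read as particular to these genes or lists. None of the 9 genes was called at 4 or 24 h after 3 mg/kg, where 0.0226% and 0% of all probe sets were called, or at 4, 24 or 48 h after 18 mg/kg, where 0.0258%, 0% and 0.0966% were. At an unadjusted p below 0.05 the genes numbered 3, 6 and 8 at the successive times after 3 mg/kg, and 3, 0 and 1 after 18 mg/kg. Of all 31042 probe sets, 4402, 6213 and 9936 were below it after 3 mg/kg, and 3536, 753 and 517 after 18 mg/kg. With both 0 h groups as the reference, none of the 9 genes and no other probe set was called at 48 h after 3 mg/kg. The count of 5 was 3 without the 2 compressed arrays (Hamp, Hfe and Ncoa4), where 4.42% of all probe sets were called, and it was 0 when replicate 2 at 0 h, or replicate 1 or 3 at 48 h, was left out alone, 3 without replicate 2 at 48 h and 8 without replicate 3 at 0 h. With 1 array left out, the number called among all 31042 probe sets ranged from 0 to 7764.

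**Figure D1:**
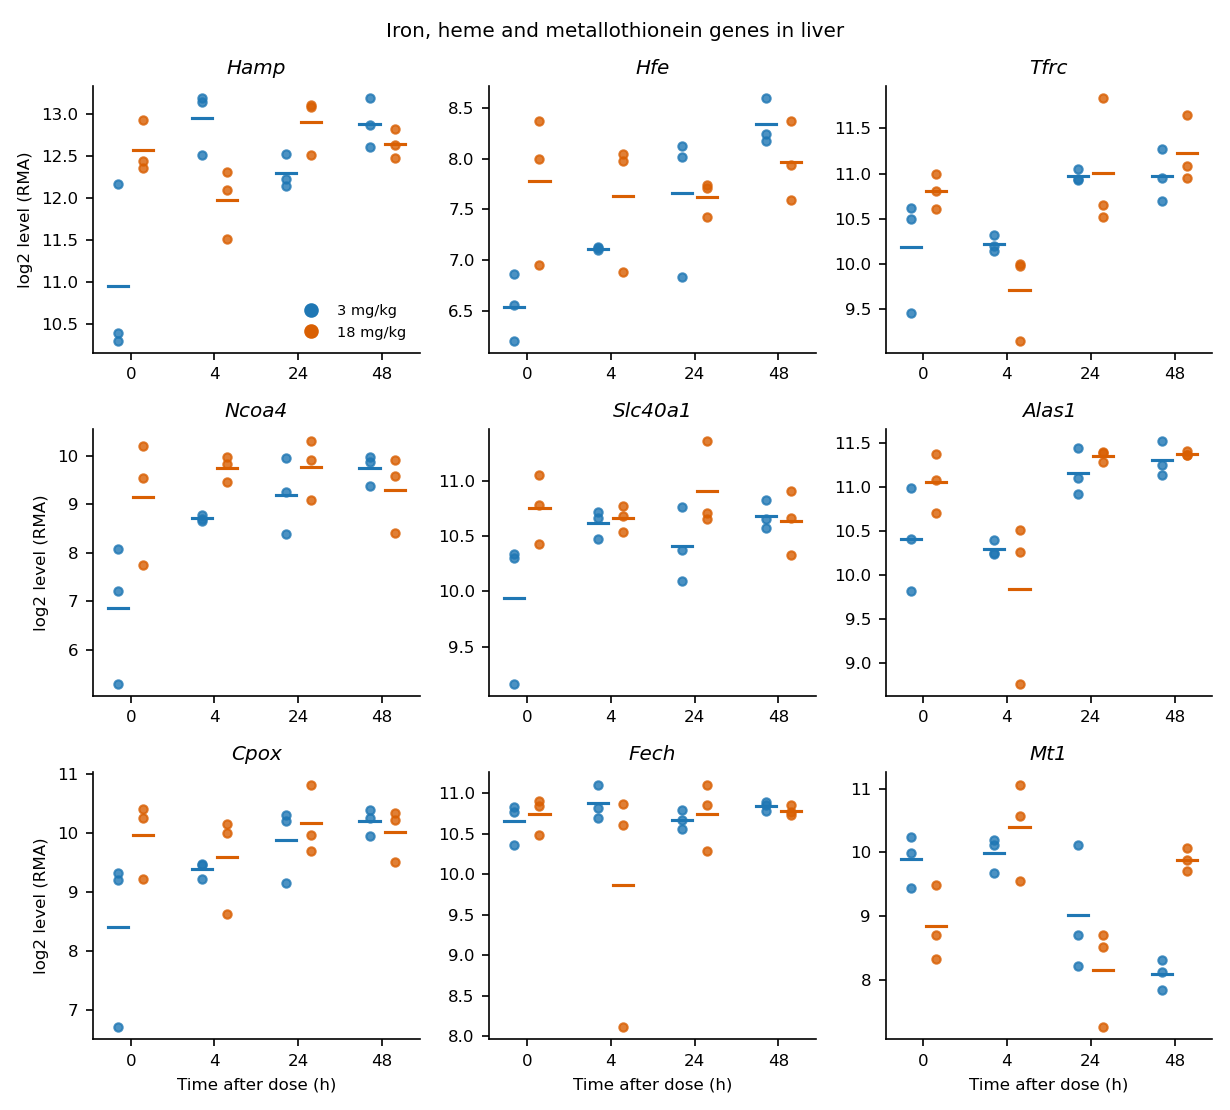
Log2 level of each of the 9 measured genes in every liver array (points) by time after the dose in hours, with the mean of each group (bar), 3 mg/kg in blue and 18 mg/kg in orange. Vertical scales differ between panels; Hamp, Hfe, Ncoa4 and Cpox have their lowest group mean at 0 h of the 3 mg/kg arm, where Cpox has 1 array far below the others (6.71, beside 9.21 and 9.32), and for Mt1 the 48 h arrays of the arms are apart.

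Hamp, the hepcidin gene, started low in the 3 mg/kg arm. Its log2 level was 10.39, 10.31 and 12.17 in the 3 arrays at 0 h of the 3 mg/kg arm, 13.19, 13.15 and 12.52 at 4 h, 12.23, 12.53 and 12.15 at 24 h, and 13.19, 12.61 and 12.87 at 48 h. In the 18 mg/kg arm it was 12.44, 12.36 and 12.94 at 0 h, 11.51, 12.32 and 12.10 at 4 h, 12.52, 13.11 and 13.09 at 24 h, and 12.49, 12.64 and 12.83 at 48 h. A pair of arrays at 0 h of the 3 mg/kg arm lay below the other 22 liver arrays, while the third 0 h array reached the level of the later groups.

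Against its own 0 h group Hamp was 3.99-fold higher at 4 h after 3 mg/kg, just outside the threshold (95% interval of the log2 change 1.26 to 2.74, limma adjusted p = 0.0514), and it rose by 1.93 ± 0.36 at 48 h (adjusted p = 0.0231), a 3.82-fold change. Both later groups lay wholly above the 0 h arrays. After 18 mg/kg the change was -0.60 ± 0.36 at 4 h (adjusted p = 0.479), with all 3 arrays below the 0 h range, and 0.07 ± 0.36 at 48 h. At 4 h the 18 mg/kg arrays lay below the 3 mg/kg arrays without overlap, a difference of -0.98 ± 0.36 (limma adjusted p = 0.499; -0.74 without the 2 compressed arrays). The test of whether the time courses of the arms differed gave an adjusted p of 0.212 for Hamp. Without the 2 compressed arrays the 48 h rise after 3 mg/kg was 1.61 and still passed (adjusted p = 0.0321). It was 1.12 with both 0 h groups as the reference (adjusted p = 0.303).

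Hfe, whose product is a membrane protein needed for iron to raise hepcidin, had log2 levels of 6.55, 6.21 and 6.86 at 0 h of the 3 mg/kg arm, 7.12, 7.10 and 7.12 at 4 h, 8.13, 6.83 and 8.02 at 24 h, and 8.24, 8.18 and 8.60 at 48 h. The group mean was higher at each later time, and the arrays at 4 h and 48 h lay above all 0 h arrays. After 18 mg/kg the levels were 7.998, 6.95 and 8.37 at 0 h and between 6.88 and 8.38 afterwards, so all later groups overlapped their reference. Hfe rose by 1.80 ± 0.36 at 48 h after 3 mg/kg (limma adjusted p = 0.0231) and was 0.19 ± 0.36 higher at 48 h after 18 mg/kg (adjusted p = 1).

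Of a list of 25 genes of hepcidin control, which includes Hamp and Hfe, 21 were measured. At 48 h after 3 mg/kg 5 of the 21 rose and none fell, with a median change of 0.41 against -0.16 over all probe sets. Apart from Hamp and Hfe 3 of 19 rose, where 11.6% of the brighter probe sets did. These were Smad5 (1.57 ± 0.33), Smad1 (1.46 ± 0.40), both encoding transducers of the BMP signal, and Tfr2 (1.02 ± 0.31), the iron-sensing second transferrin receptor. Without the compressed arrays 3 of the 21 rose (Hamp, Hfe and Smad5), with a median of 0.27. None of the 21 was called in the other 5 comparisons with 0 h.

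Of 19 measured acute phase genes, which respond to interleukin-6 and inflammation, none was called by limma in any of the 6, and at most 6 had an unadjusted p below 0.05 in any of them. At 4, 24 and 48 h after 3 mg/kg 19, 18 and 17 of the 19 had a positive change, with medians of 0.63, 0.42 and 0.52, and after 18 mg/kg 6, 8 and 8 had, with medians of -0.54, -0.03 and -0.003. Of all probe sets 43.0%, 42.0% and 39.5% had a positive change after 3 mg/kg, with medians of -0.08, -0.09 and -0.16. After 18 mg/kg 58.1%, 50.6% and 51.0% had, with medians of 0.08, 0.003 and 0.005. At 0 h 16 of the 19, and 40.2% of all probe sets, were higher in the 18 mg/kg arm, a comparison that shares the low 3 mg/kg 0 h arrays. With the 2 compressed arrays left out, the medians at 4 h were 0.28 after 3 mg/kg and 0.04 after 18 mg/kg, with 18 and 14 of 19 positive, and 2 of the 19, Crp and Orm1, were called as higher at 48 h after 3 mg/kg.

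Tfrc, the receptor that takes up transferrin, was not called in liver. Its log2 levels were 10.50, 9.46 and 10.62 at 0 h of the 3 mg/kg arm and 10.69, 11.27 and 10.95 at 48 h, a change of 0.78 ± 0.33 (limma adjusted p = 0.111) that was 0.41 without the compressed arrays. The 18 mg/kg arm had 10.81, 11.00 and 10.61 at 0 h, and 9.16, 9.98 and 10.00 at 4 h. All 3 of the 4 h arrays lay below the 0 h arrays, and the lowest was the compressed one. The difference was -1.09 ± 0.33 (adjusted p = 0.409), and it lay between -1.24 and -0.82 when any 1 array of these groups was left out. A second Tfrc probe set, much dimmer at a mean of 6.18, correlated with the first at r = 0.56 over the 24 arrays and gave 1.20 ± 0.44 at 48 h after 3 mg/kg (adjusted p = 0.0789).

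Ncoa4, the receptor that carries ferritin to the lysosome so that its iron is released, had the largest change of the 9 genes at 48 h after 3 mg/kg. Its log2 level was 7.21, 5.30 and 8.08 at 0 h of the 3 mg/kg arm, 8.78, 8.66 and 8.70 at 4 h, 9.96, 8.38 and 9.25 at 24 h, and 9.88, 9.37 and 9.99 at 48 h. All 9 later arrays lay above the 0 h arrays, and the lowest value by far was that of the compressed array. The 18 mg/kg arrays were at 9.54, 7.74 and 10.20 at 0 h, 9.45, 9.83 and 9.99 at 4 h, 9.09, 10.30 and 9.93 at 24 h, and 9.92, 9.60 and 8.40 at 48 h. All later groups overlapped this wide reference.

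The change of Ncoa4 after 3 mg/kg was 1.85 ± 0.60 at 4 h (limma adjusted p = 0.264), 2.33 ± 0.60 at 24 h (adjusted p = 0.0861) and 2.88 ± 0.60 at 48 h (adjusted p = 0.0231), the last a 7.38-fold rise. It passed at 48 h without the 2 compressed arrays too, at 2.10 (adjusted p = 0.044). With both 0 h groups as the reference it was 1.73 (adjusted p = 0.303). After 18 mg/kg the changes were 0.60, 0.61 and 0.14 at 4, 24 and 48 h, each with a standard error of 0.60.

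Slc40a1 encodes ferroportin, the only known cellular iron exporter. Its representative probe set was at 10.34, 9.16 and 10.31 at 0 h of the 3 mg/kg arm and 10.66, 10.57 and 10.83 at 48 h, a change of 0.75 ± 0.28 (limma adjusted p = 0.0787) with no overlap, and 0.36 without the compressed arrays (adjusted p = 0.353). After 18 mg/kg the arrays ranged from 10.33 to 11.36 over all 4 times. Its probe sets went different ways: the next brightest, at a mean of 9.98, correlated with the representative at r = -0.20 over the 24 arrays and gave -0.49 ± 0.32 at 48 h after 3 mg/kg (adjusted p = 0.285). The third, at a mean of 7.73, gave 0.53 ± 0.58. No direction is therefore given for ferroportin.

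Of 25 listed genes of iron uptake, storage and export, 21 were measured. At 48 h after 3 mg/kg 7 of them rose and none fell, with a median change of 0.75, where 11.6% of the brighter probe sets rose and the median over all was -0.16. Without the compressed arrays 3 of the 21 rose (Ncoa4, Pcbp2 and Nfs1), and the median was 0.36. Beside Ncoa4 and Tfr2 they were Steap4 (1.78 ± 0.48), a metalloreductase, Pcbp2 (1.59 ± 0.43), an iron chaperone, Aco1 (1.88 ± 0.56), the iron regulatory protein that doubles as cytosolic aconitase, Nfs1, the sulfur donor of iron-sulfur clusters, and Slc39a8, a metal importer. In the other 5 comparisons with 0 h none was called. The median change was positive after 3 mg/kg at 4 and 24 h (0.42 and 0.56) and -0.27 at 4 h after 18 mg/kg, and at 4 h it was 0.11 and 0.06 without the compressed arrays.

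**Figure D2:**
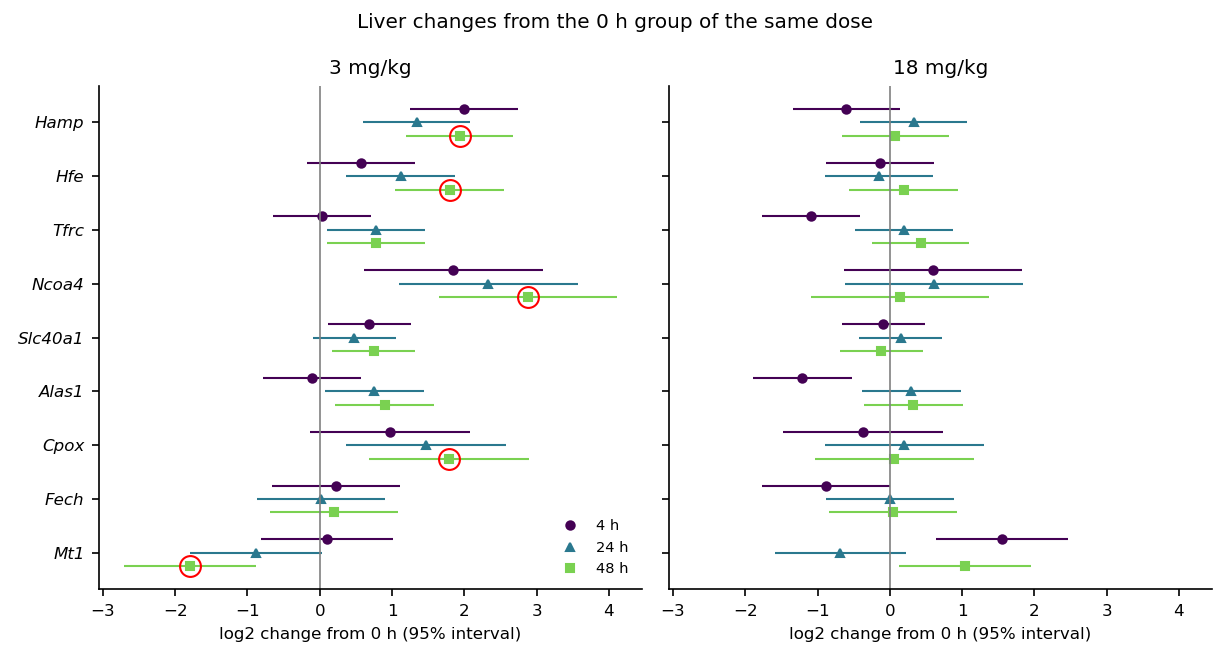
Log2 change of each gene from the 0 h group of the same dose (points) with its 95% interval (lines), for 4, 24 and 48 h after 3 mg/kg (left) and 18 mg/kg (right), 3 arrays in each group. Red rings mark the 5 changes with an adjusted p below 0.05, all at 48 h after 3 mg/kg.

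Alas1, the enzyme that sets the rate of heme synthesis in liver and is induced by fasting and by many drugs, had its lowest group mean at 4 h in both arms. Its log2 levels were 10.41, 9.82 and 10.99 at 0 h of the 3 mg/kg arm, 10.24, 10.40 and 10.25 at 4 h, 11.45, 11.11 and 10.92 at 24 h, and 11.14, 11.25 and 11.52 at 48 h. Arrays of the 18 mg/kg arm were at 11.08, 11.37 and 10.71 at 0 h, 8.77, 10.51 and 10.26 at 4 h, 11.28, 11.39 and 11.38 at 24 h, and 11.36, 11.37 and 11.41 at 48 h. The 4 h arrays of this arm lay below every 0 h array, and the later ones were tightly grouped near the top of the 0 h range.

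For Alas1 the change at 4 h was -1.21 ± 0.33 after 18 mg/kg (limma adjusted p = 0.365) and -0.11 ± 0.33 after 3 mg/kg. The first lay between -1.54 and -0.67 when any 1 array was left out, and it is not called. At 48 h after 3 mg/kg Alas1 was 0.90 ± 0.33 higher without overlap (adjusted p = 0.0773), and 0.60 higher without the compressed arrays (adjusted p = 0.0828). Tfrc and Alas1 followed each other over the 24 liver arrays (r = 0.88, and 0.79 without the 2 compressed arrays).

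Cpox, the mitochondrial enzyme of the sixth step of heme synthesis, had log2 levels of 9.21, 6.71 and 9.32 at 0 h of the 3 mg/kg arm, 9.48, 9.22 and 9.45 at 4 h, 10.30, 9.15 and 10.20 at 24 h, and 9.95, 10.25 and 10.39 at 48 h. The value of the compressed array was more than 2 log2 units below its group mates. The 18 mg/kg arm had 10.26, 9.22 and 10.41 at 0 h and between 8.62 and 10.82 later, overlapping at every time. Cpox rose by 1.79 ± 0.53 at 48 h after 3 mg/kg (limma adjusted p = 0.0413). Without the 2 compressed arrays the change was 0.94 and did not pass (adjusted p = 0.124), and after quantile normalisation it was 1.56 (adjusted p = 0.062).

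Fech, which inserts iron into protoporphyrin, was not called in any comparison. Its liver arrays lay between 10.29 and 11.11 with 1 exception, the compressed array of the 18 mg/kg 4 h group at 8.11. The change at 4 h after 18 mg/kg was -0.88 ± 0.43 (limma adjusted p = 0.438), and it was -0.003 without that array. At 48 h Fech differed from 0 h by 0.19 ± 0.43 after 3 mg/kg and by 0.05 ± 0.43 after 18 mg/kg.

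Of 13 measured heme synthesis genes, 2 rose at 48 h after 3 mg/kg and none fell, with a median change of 0.71. The share lies near the 11.6% of brighter probe sets that rose, and it was 0 of 13 without the compressed arrays, with a median of 0.40. Beside Cpox the gene was Clpx (1.04 ± 0.31), a mitochondrial chaperone that acts on ALAS. At 4 h after 18 mg/kg none of the 13 had a positive change, with a median of -0.51 against 0.08 over all probe sets. None of the 13 was called, and 4 had an unadjusted p below 0.05, as had 3536 of all 31042 probe sets. That group holds a compressed array, replicate 1, and without the 2 compressed arrays 4 of the 13 were positive, with a median of -0.09. In the breakdown and scavenging list 1 of 12 measured genes rose at 48 h after 3 mg/kg, Hmox2 (1.41 ± 0.44), the constitutive heme oxygenase, which is no more than the background of 11.6%, and without the compressed arrays Hmox2 was not called and Flvcr1, a heme exporter, was. No gene of either list was called in another liver comparison with 0 h.

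Mt1 was the gene of the 5 that fell. Its log2 level was 10.23, 10.00 and 9.45 at 0 h of the 3 mg/kg arm, 9.68, 10.11 and 10.20 at 4 h, 8.70, 10.12 and 8.22 at 24 h, and 8.13, 7.84 and 8.31 at 48 h. In the 18 mg/kg arm it was 8.34, 9.48 and 8.71 at 0 h, 10.57, 11.06 and 9.56 at 4 h, 8.51, 8.70 and 7.26 at 24 h, and 9.71, 10.07 and 9.88 at 48 h. The 3 mg/kg arm was lowest at 48 h, whereas the 18 mg/kg arm was high at 4 h and again at 48 h, both times wholly above its 0 h arrays.

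Mt1 fell by 1.80 ± 0.44 at 48 h after 3 mg/kg (limma adjusted p = 0.0262), a 3.48-fold drop, and without the 2 compressed arrays the change was -1.75 (adjusted p = 0.0506). After 18 mg/kg it was 1.56 ± 0.44 higher at 4 h (adjusted p = 0.389, and 1.47 without those arrays) and 1.04 ± 0.44 higher at 48 h (adjusted p = 1). At 48 h the 18 mg/kg arrays exceeded the 3 mg/kg arrays by 1.79 ± 0.44 without overlap, a difference that was not called (adjusted p = 0.386; 0.0290% of all probe sets were called). The time courses of the arms gave an adjusted p of 0.261.

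The second metallothionein on the array, Mt2A, was looked at after its values were seen, and correlated with Mt1 at r = 0.41 over the 24 liver arrays. Its group means in the 3 mg/kg arm were 9.74 at 0 h, 12.74 at 4 h, 10.17 at 24 h and 10.88 at 48 h, and in the 18 mg/kg arm 10.64, 12.50, 10.33 and 11.25. As with Mt1 (9.997 and 10.40), both arms had their highest mean at 4 h. For Mt2A it was above 0 h by 3.01 ± 0.56 after 3 mg/kg (limma adjusted p = 0.0783) and by 1.87 ± 0.56 after 18 mg/kg (adjusted p = 0.416), with no 4 h array overlapping 0 h. Mt1 at 4 h after 3 mg/kg was only 0.10 ± 0.44 above 0 h, with overlapping arrays (adjusted p = 0.913). At 48 h after 3 mg/kg, where Mt1 fell, Mt2A was 1.14 ± 0.56 higher (adjusted p = 0.163). Whether the Mt1 probe set reads Mt1 transcripts fully was not checked. Of 10 measured metallothionein and zinc genes, Mt1 alone was called at any time, a share near the background of 9.34% at 48 h after 3 mg/kg, and none was without the compressed arrays.

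**Figure D3:**
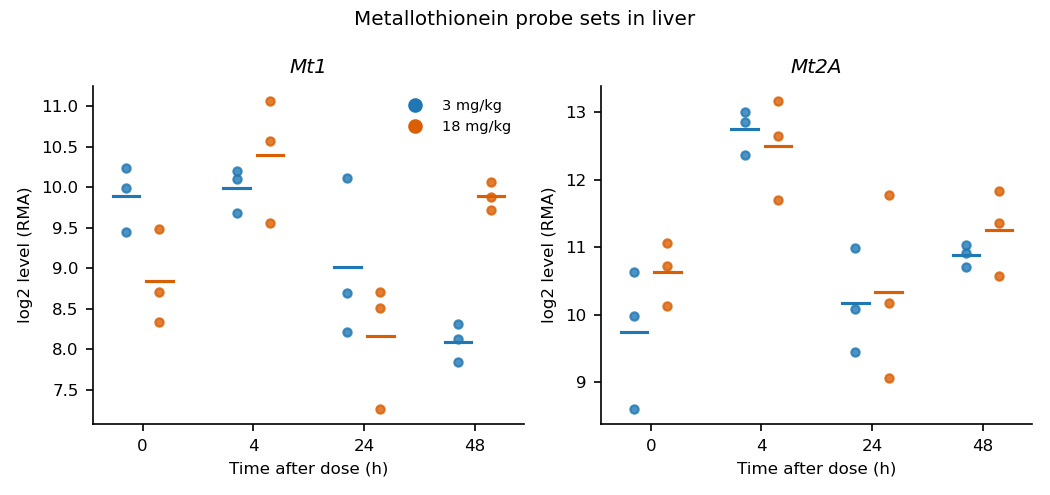
Log2 level of the Mt1 and Mt2A probe sets in every liver array (points) by hours after the dose, with group means (bars), 3 mg/kg in blue and 18 mg/kg in orange. Mt2A is high at 4 h in both arms, while Mt1 at 48 h is low after 3 mg/kg (7.84 to 8.31) and high after 18 mg/kg (9.71 to 10.07).

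The arms were compared at 0 h as a measure of how far groups differ before a later time is reached. At that time 8 of the 9 genes were higher in the 18 mg/kg arm, with a median difference of 0.82. It was -0.11 over all probe sets, which include the dim ones, while all 9 representatives are among the brighter. An unadjusted p below 0.05 was found for 6 of the 9 genes and for 6658 of all 31042 probe sets. None of the 9 genes was called by limma, as was true of all probe sets (0%). Ncoa4 differed by 2.30 ± 0.60 and Hamp by 1.62 ± 0.36 (adjusted p = 0.106 for both), Cpox by 1.55 ± 0.53 (adjusted p = 0.132) and Hfe by 1.23 ± 0.36 (adjusted p = 0.111), while Mt1 was lower by 1.05 (difference -1.05 ± 0.44, adjusted p = 0.182). Without the compressed arrays 7 of the 9 were higher, with a median of 0.43, and Ncoa4 differed by 1.51, Hamp by 1.30 and Cpox by 0.70. These comparisons and the 48 h comparisons after 3 mg/kg share the 3 mg/kg 0 h arrays. For Ncoa4, Hamp, Cpox, Hfe and Mt1 the 48 h changes were 2.88, 1.93, 1.79, 1.80 and -1.80.

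No gene of the 9 was called between the arms at 4, 24 or 48 h, where 0%, 0.0870% and 0.0290% of all probe sets were. An unadjusted p below 0.05 was found for 2, 0 and 1 of the 9, and for 3040, 933 and 782 of all 31042 probe sets. The moderated F test of the time courses called none of the 9 (0.00966% of all probe sets). At an unadjusted p below 0.05 it had 4 of the 9, and 2962 of all 31042 probe sets. At 48 h, apart from Mt1, the differences of 18 from 3 mg/kg lay between -0.44 for Ncoa4 and 0.26 for Tfrc. The 95% intervals were wide, from -1.68 to 0.79 for Ncoa4 and from -0.98 to 0.50 for Hamp.

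Between the later groups and 0 h the arrays of 4, 2 and 8 of the 9 genes did not overlap at 4, 24 and 48 h after 3 mg/kg, where 20.6%, 18.9% and 36.3% of all probe sets did not. After 18 mg/kg the counts were 4, 0 and 1 of 9, against 11.4%, 9.74% and 9.54%. The genes' median change was 0.57, 0.78 and 0.90 after 3 mg/kg, and -0.37, 0.20 and 0.14 after 18 mg/kg. With the 2 compressed arrays left out it was 0.16, 0.46 and 0.60 after 3 mg/kg, and -0.003 at 4 h after 18 mg/kg.

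Other measures moved with the 3 mg/kg 0 h group. The signals of a marker list were summed unlogged and the log2 of the sum taken, so the brightest genes weigh most. For the 8 measured Kupffer cell and macrophage markers it was 12.98 to 13.49 at 0 h and 13.63 to 13.76 at 48 h, for 5 endothelial markers 10.63 to 12.06 and 12.18 to 12.28, for 7 erythroid markers 11.79 to 13.33 and 13.54 to 13.67, and for 9 hepatocyte markers 15.69 to 16.53 and 16.62 to 16.67. Of the 7 erythroid markers, which include Tfrc, 4 lay above the median probe set, and Hbb was the brightest (mean 12.70). In each of these lists the 0 h arrays lay wholly below the 48 h arrays. This held without the compressed array, when the 0 h arrays began at 13.33, 11.84, 12.98 and 16.32 in that order. The 9 stellate markers went the same way (11.45 to 12.30 and 12.43 to 12.77). The 8 blood leukocyte markers overlapped (9.10 to 9.48 and 9.29 to 9.785). The 5 neuron markers, none above the median probe set, were higher at 0 h (7.57 to 8.08 and 7.28 to 7.32). The gap between 3′ and 5′ actin control probe sets, which widens as RNA degrades, was 3.29 to 4.38 at 0 h and 2.84 to 3.37 at 48 h. The overlap came from the compressed array alone: the other 0 h arrays, at 3.885 and 4.38, lay wholly above the 48 h arrays. The same gap for GAPDH was 1.42 in the compressed array, 3.46 and 4.005 in the other 0 h arrays, and 2.33 to 3.17 at 48 h. The part of these in the changes was not tested, and in whole tissue fewer cells of a type and less RNA per cell cannot be told apart. As covariates, the actin gap left all 9 genes called at 48 h after 3 mg/kg, with 14423 probe sets called in all, and the spread of each array left none.

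**Figure D4:**
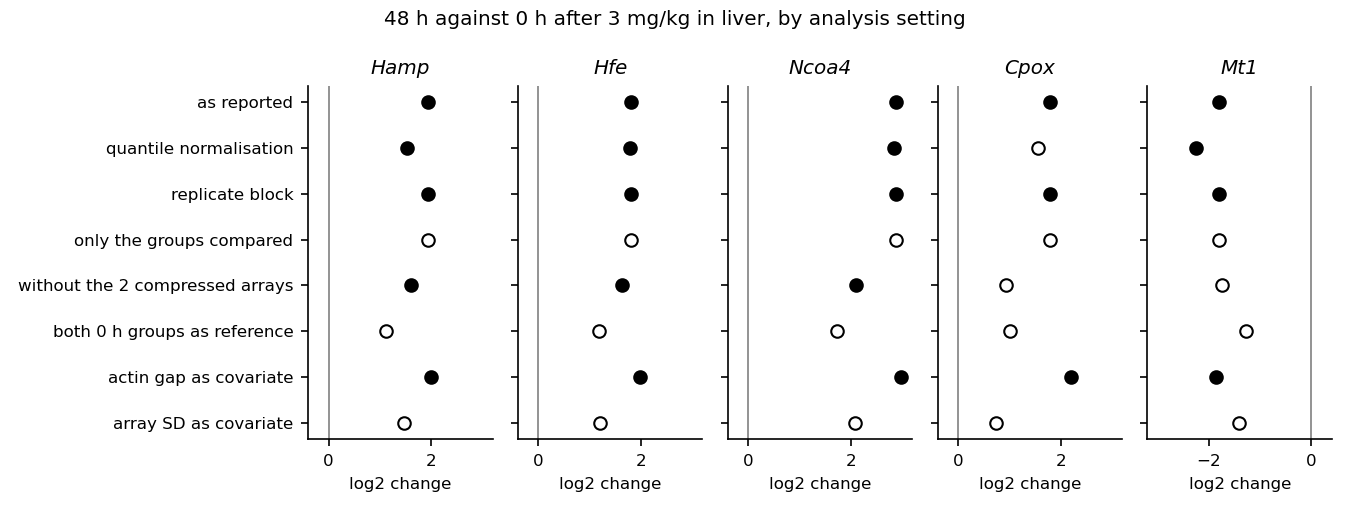
Log2 change at 48 h after 3 mg/kg from 0 h in liver for the 5 genes called, under 8 settings of the analysis (rows); filled points have an adjusted p below 0.05 and open points do not. The direction is the same in each setting, while the size shrinks with both 0 h groups as the reference. None of the 5 passes in that setting, with only the groups compared in the fit, or with array SD as a covariate.

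Several of the genes followed each other over the 24 liver arrays. Ncoa4 and Cpox correlated at r = 0.88 (0.89 without the 2 compressed arrays) and Hfe with each at 0.82 (0.84 with Ncoa4 and 0.83 with Cpox without them). Fech correlated with Alas1 at r = 0.67, and at -0.08 without the 2 compressed arrays. Among all genes on the array, those most like Ncoa4 were Surf2, Fmc1 and Leprot (r = 0.98, 0.98 and 0.97), those most like Cpox were Commd3, Atp5pf and Ift20 (0.99, 0.98 and 0.98), and those most like Hfe were Alg12, Naa60 and Pld1 (0.95, 0.94 and 0.93). Hamp was most like C15h14orf119, Eif3h and Smu1 (0.88, 0.88 and 0.87), and Mt1 most like Cxcr5 (0.83). The arrays share the compressed values and the low 0 h group, so these are descriptions.

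Clock genes, which follow the hour of the day, were read because the clock time of sampling was not given. At 4 h Per3 (1.89 ± 0.25 after 3 mg/kg and 1.84 ± 0.25 after 18 mg/kg) and Nr1d1 (3.21 ± 0.50 and 3.15 ± 0.50) rose and Cry1 fell in both arms, and Nr1d2 rose after 3 mg/kg. Of the 16 measured, 4 were called at 4 h after 3 mg/kg and 3 after 18 mg/kg, among 7 and 8 called probe sets in all. At 48 h after 3 mg/kg 1 of the 16 was called, Arntl (2.14 ± 0.58, limma adjusted p = 0.0321), where 9.34% of all probe sets were. Without the compressed arrays Arntl was not called, nor was Cry1 at 4 h after 3 mg/kg. At 4 h after 18 mg/kg 4 of the 16 were then called as higher, Nr1d2 among them, and 1 as lower, among 14 called probe sets in all. Time after the dose and hour of the day cannot be told apart here. None of 11 measured glucocorticoid and fasting genes was called by limma in any of the 6 liver comparisons, and at most 4 had an unadjusted p below 0.05.

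In cortex the genes were at other levels and none was called. Hamp averaged 12.40 ± 0.75 (SD, n = 24) in liver and 6.08 ± 1.03 in cortex, Mt1 9.28 ± 0.98 and 5.14 ± 0.24, Slc40a1 10.58 ± 0.40 and 7.16 ± 0.28, and Alas1 10.85 ± 0.66 and 8.88 ± 0.24. The Mt1 probe set was dim in cortex, above only 28.6% of probe sets, while that of Mt2A lay above 94.7%. The Mt1 value is therefore not read as absence of its transcript from cortex. Tfrc (10.64 ± 0.62 and 10.99 ± 0.24) and Ncoa4 (9.06 ± 1.15 and 9.80 ± 0.11) had the higher mean in cortex. Over the 24 cortex arrays Ncoa4 had an SD of 0.11 and Cpox of 0.14. In the cortex comparisons with 0 h 0%, 0.0741% and 0% of all probe sets were called at 4, 24 and 48 h after 3 mg/kg, and 0% at each time after 18 mg/kg, with 0, 0, 1, 1, 0 and 4 of the 9 genes at an unadjusted p below 0.05. In the same order 3905, 4471, 4026, 3420, 1858 and 5151 of all 31042 probe sets were below it.

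Hamp in cortex was uneven between arrays of a group. In 20 of 24 arrays it lay between 5.31 and 6.21, and in 4 between 7.88 and 8.85: replicate 1 at 4 h after 3 mg/kg (7.88), replicate 2 at 4 h after 18 mg/kg (8.17), and replicates 2 and 3 at 48 h after 18 mg/kg (8.85 and 8.10). The same 4 arrays had the highest Alb, the gene of serum albumin, at 13.59 to 14.02, against 6.96 to 12.39 in the other 20. Of the 9 hepatocyte markers 3 had a mean above the median probe set in cortex. The log2 of the summed signal of the 9 reached 15.27 at 48 h after 18 mg/kg, where its lowest array was at 13.49. Ttr, also listed as a choroid plexus marker, lay between 11.94 and 13.63 in cortex. The highest cortex array was at 12.07 for Apoc3 (mean 6.83), 11.13 for Serpina1 (6.18), 11.04 for Fgb (5.99), 10.26 for Cyp2e1 (5.62) and 9.51 for Apoa1 (5.4). Hnf4a and Tat reached 7.3 and 5.3. The mean of Hamp at 48 h after 18 mg/kg exceeded that at 0 h by 1.66 ± 0.74 with overlapping arrays (limma adjusted p = 0.268). The part of the hepatocyte signal in this difference was not tested.

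**Figure D5:**
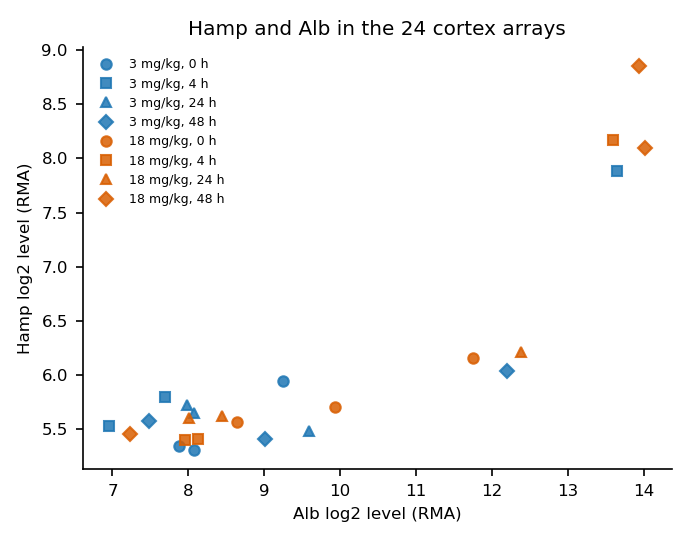
Log2 level of Hamp against log2 level of Alb in the 24 cortex arrays, each point an array, coloured by dose and shaped by time. The 4 arrays with Hamp above 7 are those with Alb above 13, and they belong to 3 groups.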

How the data were processed

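The authors deposited log2 values summarised with RMA and Partek, per the submitters' processing notes; their versions are not given in the sources used here. The values were used as deposited. A mean for each of 8 groups was fitted per tissue to 31042 probe sets (57 controls left out) with limma 3.58.1 in R 4.3.3, followed by empirical Bayes moderation, 6 contrasts with 0 h per tissue, 4 same-time dose contrasts and an F test in liver, with Benjamini-Hochberg adjustment within each and a threshold of 0.05, two-sided. The fit was tested on simulated data. Of 31042 probe sets, 20826 had 1 gene symbol, 436 several and 9780 none in the platform annotation. All members were named; from the pathway lists, genes past the threshold, at most the 4 with the smallest p per list and contrast, and for likeness the 3 genes with the highest r; Mt2A, Alb, Nfs1, Slc39a8, Tfr2, Crp, Orm1 and Flvcr1 were named outside this rule after their values were seen. The members and lists were chosen with earlier results of these data known. Arrays give no read depth; the number of arrays limits the precision. Alternatives were other scalings, filters, references, weights, covariates, a replicate block and leaving out arrays.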

Additional observations from a re-analysis of the deposited data

Results flagged for a closer look

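In 8 cases every array of a later liver group lay on 1 side of the mean of its 0 h group, and every array of the matching cortex group lay on the opposite side of its own. The cases come from 9 genes in 6 comparisons with 0 h. The share of all probe sets that meet this rule was not counted, so the cases are not read as particular to these genes. The difference between the tissues was not tested in any of the 8 cases. For Ncoa4 the log2 change was 1.85 in liver and -0.14 in cortex at 4 h after 3 mg/kg, and 2.88 and -0.05 at 48 h. For Alas1 it was 0.75 in liver and -0.30 in cortex at 24 h after 3 mg/kg, 0.90 and -0.12 at 48 h, and -1.21 and 0.34 at 4 h after 18 mg/kg. Cpox had 1.79 and -0.08 at 48 h after 3 mg/kg, and Fech 0.19 and -0.11. Mt1 had -0.68 in liver and 0.35 in cortex at 24 h after 18 mg/kg, and its probe set was dim in cortex. Among these, the liver changes of Ncoa4 and Cpox at 48 h after 3 mg/kg passed the test within liver.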

How the results depend on the processing

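The 5 genes called in liver at 48 h after 3 mg/kg numbered 0 with both 0 h groups as the reference and 0 with only the groups compared in the fit, 3 without the 2 compressed arrays, and, under alternatives added after the data were seen, 9 with the actin gap as a covariate, 0 with array SD as a covariate and 0 with both 0 h groups as the reference without the compressed arrays. Leaving out 1 array gave 0 to 8, with 0 to 7764 of all 31042 probe sets called: 0 without 0 h replicate 2 or 48 h replicate 1 or 3, 3 without 48 h replicate 2, and 8 without 0 h replicate 3. The direction of the 5 changes held under all of these. For comparisons with no gene called, leaving out 1 array gave 0 to 2 at 4 h and 0 to 4 at 24 h after 3 mg/kg, 0 to 5 between arms at 0 h and 0 to 1 for the F test, each highest without 3 mg/kg 0 h replicate 3. In that order the probe sets called in all ranged from 0 to 1809, 0 to 3777, 0 to 4123 and 1 to 133. With array weights (gene-by-gene method, 0.11 for the compressed 0 h array) the counts in liver were 2 at 4 h and 6 at 24 h after 3 mg/kg, 2 at 4 h after 18 mg/kg, 7, 1 and 1 between arms at 0, 4 and 48 h and 5 for the F test. In cortex they were 3 at 24 h and 1 at 48 h after 3 mg/kg and 2 at 4 h after 18 mg/kg, where 8015, 5252 and 7759 of all 31042 probe sets were called. With the actin gap as a covariate the liver counts were 1 at 4 h and 7 at 24 h after 3 mg/kg and 6 between arms at 0 h, and Fech at 4 h after 18 mg/kg turned from -0.88 to 0.073. Only brighter probe sets gave 1 at 4 h after 3 mg/kg, and only the groups compared 1 between arms at 48 h. The cause of these shifts was not tested. The liver counts with weights, the actin gap, only brighter probe sets and only the groups compared are given here without the total over all probe sets. They are therefore not read as particular to these genes. The replicate block left 5 at 48 h after 3 mg/kg and changed no count of genes called; same-numbered arrays deviated together in every pair at 1 of 12 comparisons (r of 0.18 to 0.42, liver 24 h after 3 mg/kg), so the numbers were not taken as pairs. Centring each array on its median moved the median change of all probe sets at 48 h after 3 mg/kg from -0.16 to 0.01, and the share of called probe sets that were higher from 64.3% to 80.5%; quantile normalisation gave 57.5%.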
